A study of Mus musculus with 3 samples.

Results

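The comparison was between 2 of the 3 libraries of the series, the IKVAV PA + PEDOT-S library and the IKVAV PA library, each the only library of its group. Genes were taken into it where either of these libraries reached 1 CPM (1 count per 1000000 counts), which kept 13629 of the 54232 genes listed. The samples were cultured wildtype cortical neurons of CD1 mice, and the data were RNA-seq counts per gene. A peptide amphiphile (PA) is a peptide joined to a fatty tail that assembles into nanofibres in water, and IKVAV is a short cell-binding sequence of the matrix protein laminin. PEDOT-S is a water-soluble conducting polymer with sulfonate side chains. The sample title calls the added component PS2 and the library name calls it PEDOT-S_OH, and that both stand for one material was assumed. The third library, labelled PDL and control, is given only as a level beside the others, and what PDL stands for is not in the labels. The treatment field carries the same entry for all 3 libraries, the control included, so groups were read from titles and library names. All 3 are labelled repeat 3, and the labels give neither the age of the cultures nor the time on a scaffold nor the number of animals, and their protocols refer to a patent application.

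With 1 library per group no test between conditions could be made, no p-value is given, and every difference below describes these libraries. The deposited counts summed to 79057998 in the IKVAV PA + PEDOT-S library, 124425958 in the IKVAV PA library and 78993105 in the PDL library. At least 1 count was found for 26436, 29909 and 27630 genes in the same order. The difference in depth was removed by scaling, and counting error remains largest for genes near 1 CPM. Levels are written as normalised CPM in the order IKVAV PA + PEDOT-S, IKVAV PA and PDL, and they compare libraries for a gene, not genes with each other. A log2 ratio is always that of IKVAV PA + PEDOT-S over IKVAV PA, and a range after it is its 95% counting interval. That interval covers counting error only and leaves out the spread between cultures, which 1 library per group cannot give. It can be too narrow even for counting error, because sequencing reads that carry no molecular identifier need not come from separate molecules. A gene is said to have risen or fallen where the whole counting interval lay beyond 1.5-fold.

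Cortical neurons answer depolarisation in waves. Calcium entry first switches on transcription factors such as Fos and Egr1 and then late effector genes that act at synapses, such as Bdnf and Nptx2. Cultures prepared from cortex also hold glia and cells of the vessel wall and meninges, and these other cells make most of the collagen and contractile actin. In bulk RNA, fewer cells of a type and less RNA per cell cannot be told apart, and that holds for every marker described below.

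The labelled cell type was checked first. Neuronal markers were high in all 3 libraries, with Map2, a dendritic microtubule protein, at 2375, 2449 and 2450 CPM and Rbfox3, the neuronal splicing factor known as NeuN, at 111, 115 and 98.7 CPM. Summed over 4 neuronal markers the levels were 4813, 4974 and 4796 CPM. The 5 microglial markers together reached 0.906, 0.786 and 0.842 CPM and none passed the expression filter. The 4 endothelial markers together reached 1.4, 1.17 and 1.55 CPM, and 1 of them, Pecam1, passed it.

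Most genes had nearly the same level in both scaffold libraries. Of the 13629 genes compared, 43 rose (0.316%) and 271 fell (1.99%), 2.3% in all, and 13315 stayed within the bound. The median log2 ratio was 0.007 and 51.8% of genes lay above 0, and these are the values against which each gene group is set below. Among 12288 protein-coding genes 39 rose and 136 fell, and among 1341 genes of other annotated classes 4 rose and 135 fell. Genes that moved were mostly of low level. The larger of the 2 scaffold levels was under 5 CPM for 87 of the 136 protein-coding genes that fell and for 19 of the 39 that rose, and its median was 3.06 and 5.53 CPM, against 31.2 CPM for all protein-coding genes compared. Of the 43 that rose 16 reached 1 CPM in the IKVAV PA + PEDOT-S library alone, and of the 271 that fell 129 reached it in the IKVAV PA library alone. Such genes entered the comparison only through the library where they are high, so counts of risen and fallen genes describe the genes compared and not all genes of a list.

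**Figure D1:**
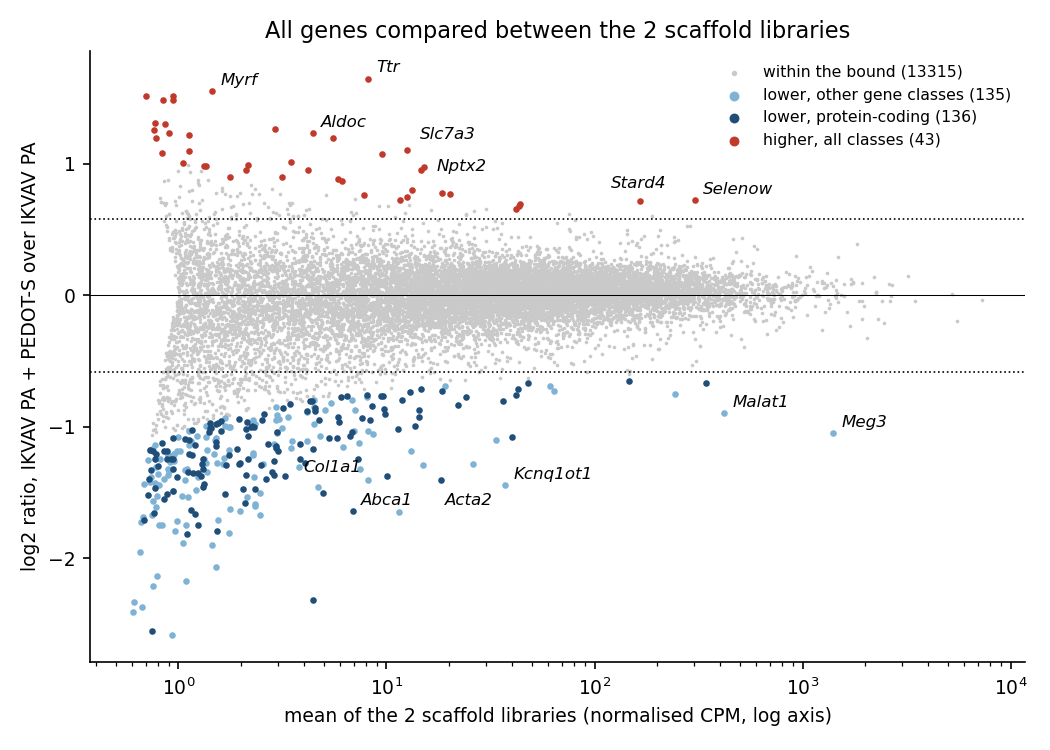
Each point is 1 of the 13629 genes compared, placed by the mean of its normalised CPM in the 2 scaffold libraries (log axis) and by its log2 ratio of IKVAV PA + PEDOT-S over IKVAV PA, with dotted lines at 1.5-fold. The 43 genes that rose (red) and the 271 that fell (dark blue for 136 protein-coding genes, light blue for 135 of other classes) lie mostly at the low end, with Selenow, Stard4, Malat1 and Meg3 among the exceptions.

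Genes induced by neuronal activity were higher as a group in the IKVAV PA + PEDOT-S library. Of 40 rapid activity-induced genes, all compared, 37 had a log2 ratio above 0 with a median of 0.32, although 1 alone rose and none fell. That gene was Gadd45g, a stress and growth arrest gene that activity also induces, at 5.53, 2.85 and 5.797 CPM and a log2 ratio of 0.96 (0.75 to 1.16), or 1.94-fold. The IKVAV PA library was thus the low one, and the other scaffold library lay close to the PDL level. Fos (ENSMUSG00000021250, GRCm38 chr12:85473890-85477273), a subunit of the AP-1 factor, was at 42.4, 32.3 and 50.02 CPM, a log2 ratio of 0.39 (0.33 to 0.46). Egr2, a zinc finger factor, was at 1.8, 0.978 and 1.69 CPM, a log2 ratio of 0.88. Fosl2, another AP-1 subunit, was at 342, 237 and 308 CPM, a log2 ratio of 0.53. In these 3 genes too the IKVAV PA library held the lowest of the 3 levels, but none of the intervals cleared the bound. The nuclear receptor Nr4a2 had 104, 75.1 and 85.8 CPM and a log2 ratio of 0.47, and the antiproliferative gene Btg2 8.38, 6.13 and 11.7 CPM and 0.45. Csrnp1, a nuclear protein of the early response, had 4.34, 2.66 and 3.92 CPM and a log2 ratio of 0.70, and the Krüppel-like factor Klf10 13.2, 8.77 and 8.84 CPM and 0.59. The group was not uniform. Egr1 stood at 15.98, 16.5 and 22.4 CPM, a log2 ratio of -0.05, and Arc, which acts in glutamate receptor endocytosis, at 4.199, 4.25 and 5.45 CPM, a log2 ratio of -0.02, so neither took part in the shift. Amigo3, an adhesion protein, had the lowest value at 3.11, 4.61 and 3.27 CPM and a log2 ratio of -0.57.

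Late activity-induced genes were shifted the same way, with 31 of 38 compared above 0 of 40 listed, a median of 0.24, 3 risen and none fallen. Of the 3 that rose, Ptgs2 and Blnk reached 1 CPM among the scaffold libraries only with PEDOT-S, and so could enter the count only as high there. The summed level of the list was 2832, 2408 and 2935 CPM, so here as well IKVAV PA was the low library and the PDL library was at or above the other scaffold. Ptgs2, the inducible cyclooxygenase, rose from a very low level, at 1.24, 0.441 and 0.943 CPM and a log2 ratio of 1.49 (0.997 to 1.99). Blnk, an adaptor protein best known from B cells, rose at 1.76, 0.8902 and 1.77 CPM, a log2 ratio of 0.98. Nptx2 (ENSMUSG00000059991, GRCm38 chr5:144545902-144557478), a secreted pentraxin that clusters AMPA receptors, was the third to rise, at 20.2, 10.2 and 18.97 CPM. Its relative Nptx1 was at 32.2, 20.7 and 23.2 CPM, a log2 ratio of 0.64 that did not clear the bound. Bdnf, the brain-derived neurotrophic factor, was at 38.1, 26.8 and 46.7 CPM, a log2 ratio of 0.51 (0.43 to 0.58), and 14.4% of its exonic bases are shared with another gene, so its value is uncertain. Vgf, a secreted precursor protein that Bdnf induces, was at 242, 171 and 237 CPM and a log2 ratio of 0.50. Tac1, the substance P precursor, was at 1.91, 1.11 and 1.798 CPM, a log2 ratio of 0.78. For both and for Bdnf the IKVAV PA library held the lowest level. Inhba, an activin subunit, had a log2 ratio of -0.05 and Cort, the cortistatin precursor, one of -0.36.

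Groups on either side of the activity genes moved less. Of 29 neuropeptide and granin genes compared, 21 were above 0 with a median of 0.097 and none rose or fell. Sst, somatostatin, was at 199.6, 146 and 164 CPM, a log2 ratio of 0.46, and the granin Scg2 at 222, 188 and 292 CPM, a log2 ratio of 0.24, whereas Pdyn, prodynorphin, had -0.50 and Cartpt, the CART peptide precursor, -0.41. Of 25 ERK pathway feedback genes compared, which MAP kinase signalling induces and which restrain it, 22 were above 0 with a median of 0.18 and none rose or fell. For 29 calcium and calmodulin signalling genes compared, which carry the signal from the membrane to these targets, 11 were above 0, the median was -0.038 and none rose or fell.

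Promoters of the activity genes are shown because a motif known from such genes was counted across all promoters. The core letters TGACG of the cAMP response element, to which CREB binds, were searched on both strands in the 250 bases before each RefSeq start, for the 9687 of 12288 protein-coding genes that matched by symbol. A gene counted as matched where any of its starts held the letters, and 2051 of the 9687 had several starts. Genes with more starts can match more readily, and the number of starts was not matched between lists. A match was present for 31.4% of the 9687 genes, and for 23 of the 32 rapid activity-induced genes with a sequence (71.9%), 12 of 26 late ones (46.2%) and 14 of 22 neuropeptide and granin genes (63.6%). Sterol synthesis genes, described below, held it for 10 of 22 (45.5%), about the share of the late genes. The E-box letters CACGTG were present for 10.2% of all promoters, 10 of the 32 rapid genes (31.2%), 2 of the 26 late ones (7.69%) and 6 of the 22 sterol synthesis genes (27.3%). Rapid genes with and without a match had medians of 0.351 and 0.305, and late genes had 0.362 and 0.118. Of the 21 genes with a sequence that rose 33.3% had a TGACG match, and of the 102 that fell 13.7%. The full element TGACGTCA, which counts as 2 overlapping matches of the core, was present for 3.25% of all and 15.6% of the rapid genes. A match describes letters and not binding. Each promoter shown was taken from starts that held a match. The 3 promoters are from RefSeq on GRCm38.p6, at chr12:85473640-85473889 (+ strand) for Fos, chr1:134079156-134079405 (- strand) for Btg2 and chr2:57124004-57124253 (- strand) for Nr4a2, with matches in capitals, the nearest of them 62, 159 and 107 bases before the start.
Fos: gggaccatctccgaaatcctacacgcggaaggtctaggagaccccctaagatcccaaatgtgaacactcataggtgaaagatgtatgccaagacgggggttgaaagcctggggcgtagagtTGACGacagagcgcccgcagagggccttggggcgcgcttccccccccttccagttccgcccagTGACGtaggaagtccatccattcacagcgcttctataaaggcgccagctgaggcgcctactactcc
Btg2: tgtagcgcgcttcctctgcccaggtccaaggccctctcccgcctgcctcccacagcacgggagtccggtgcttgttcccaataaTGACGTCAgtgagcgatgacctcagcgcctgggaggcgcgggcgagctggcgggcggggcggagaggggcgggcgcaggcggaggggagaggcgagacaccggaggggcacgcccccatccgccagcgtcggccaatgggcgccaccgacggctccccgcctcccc
Nr4a2: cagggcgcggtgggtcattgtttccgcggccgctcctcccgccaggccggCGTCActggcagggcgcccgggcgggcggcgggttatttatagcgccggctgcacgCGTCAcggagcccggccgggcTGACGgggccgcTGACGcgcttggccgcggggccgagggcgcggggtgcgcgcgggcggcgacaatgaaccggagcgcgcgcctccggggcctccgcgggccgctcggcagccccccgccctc

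Genes of sterol synthesis were also shifted upward. Cells make cholesterol by a chain of enzymes that the factor SREBP2 controls together, and the sterol-sensing protein Insig1 belongs to the same programme. Of 30 such genes compared of 31 listed, 27 were above 0 with a median of 0.35, 2 rose and none fell. The list summed to 7875, 6403 and 6293 CPM, so here the IKVAV PA + PEDOT-S library was the high one and the other libraries were close together. Ebp (ENSMUSG00000031168, GRCm38 chrX:8185329-8193512), the sterol isomerase, rose at 16.8, 9.63 and 10.2 CPM, a log2 ratio of 0.80 (0.69 to 0.91). Stard4, which carries cholesterol between membranes, rose with a log2 ratio of 0.72 (0.69 to 0.75). Insig1 was at 229, 150.4 and 152 CPM, a log2 ratio of 0.61. The demethylase Cyp51 was at 588, 435 and 449 CPM, a log2 ratio of 0.44. In each of these the IKVAV PA + PEDOT-S library was highest, and Insig1 and Cyp51 stayed within the bound. Mvk and Mvd, kinase and decarboxylase of the mevalonate steps, had log2 ratios of 0.50 and 0.50. At the other end stood Npc1l1, an intestinal cholesterol transporter, with -0.88, and Npc1, which exports cholesterol from lysosomes, with -0.005.

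Fatty acid and phospholipid synthesis followed more weakly, with 25 of 31 genes compared above 0, a median of 0.17 and none beyond the bound. Scd1, a stearoyl-CoA desaturase, was at 96.6, 64.9 and 84.2 CPM, a log2 ratio of 0.57, and its relative Scd2 at 2066, 1572 and 1553 CPM, a log2 ratio of 0.39. The lipase-family gene Pnpla3 and Acss2, which makes acetyl-CoA from acetate, had 0.56 and 0.49, and Elovl1, a fatty acid elongase, had -0.94. Genes that export and handle lipid went in both directions, with 9 of 25 LXR targets and lipid handling genes above 0, a median of -0.044, 1 risen and 3 fallen. Scarb1, a receptor for high-density lipoprotein, rose at 51.1, 32.4 and 32.2 CPM, a log2 ratio of 0.66. Abcg1, a cholesterol exporter, fell at 4.47, 9.19 and 8.64 CPM, a log2 ratio of -1.04 (-1.22 to -0.87). Abca8a, a related transporter, fell at 6.88, 12.9 and 10.5 CPM, a log2 ratio of -0.90. Abca1, the main exporter to lipid-poor apolipoprotein, fell furthest of these, at 3.34, 10.4 and 21.6 CPM and a log2 ratio of -1.64 (-1.84 to -1.45). Among 31 ABC transporter genes compared 14 were above 0, the median was -0.085, and those 3 and Abcd4, a vitamin B12 transporter, were the 4 that fell.

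A further group that was higher as a whole is the amino acid response, the genes that the factor ATF4 turns on when amino acids are short or translation is slowed. Of 39 compared of 45 listed, 37 were above 0 with a median of 0.28, 2 rose and none fell. Slc7a3 (ENSMUSG00000031297, GRCm38 chrX:101079210-101086020), a carrier of cationic amino acids, rose at 17.2, 7.98 and 9.36 CPM, a log2 ratio of 1.11 (0.99 to 1.23), or 2.16-fold. Eif4ebp1, a repressor of cap-dependent translation, rose at 9.79, 5.77 and 7.34 CPM, a log2 ratio of 0.76. Atf4 itself was at 327, 227 and 250 CPM, a log2 ratio of 0.53. In each of them IKVAV PA was the lowest library. The glutathione-degrading enzyme Chac1 was at 20.1, 12.8 and 14.3 CPM, a log2 ratio of 0.65, and the glutamine carrier Slc1a5 at 8.86, 5.33 and 4.48 CPM, one of 0.73. Trib3, a pseudokinase that ATF4 induces, went against the group at -0.30, and Vldlr, a lipoprotein receptor, was at -0.06. Other stress programmes were near the median of all genes, with no gene risen or fallen in any of them. The medians were 0.060 for 28 unfolded protein response genes, 0.064 for 28 NRF2 targets, 0.080 for 25 heat shock genes, 0.074 for 29 p53 targets, 0.033 for 26 hypoxia-induced genes, 0.035 for 17 metal handling genes and 0.029 for 34 aminoacyl-tRNA synthetase genes. The synthetase genes Cars, Aars, Gars, Nars, Sars, Wars and Mars are also in the amino acid response list, and each was above 0. Of all 34 synthetase genes 18 were above 0. In glycolysis 23 of 29 genes were above 0 with a median of 0.093, and 1 rose, the aldolase gene Aldoc. The kinase Hk2 was at 6.48, 3.82 and 6.26 CPM, a log2 ratio of 0.76, and the glucose carrier Slc2a1 at 10.4, 7.26 and 9.97 CPM, one of 0.53, while the platelet-type phosphofructokinase Pfkp was at 253, 358 and 272 CPM and -0.50.

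**Figure D2:**
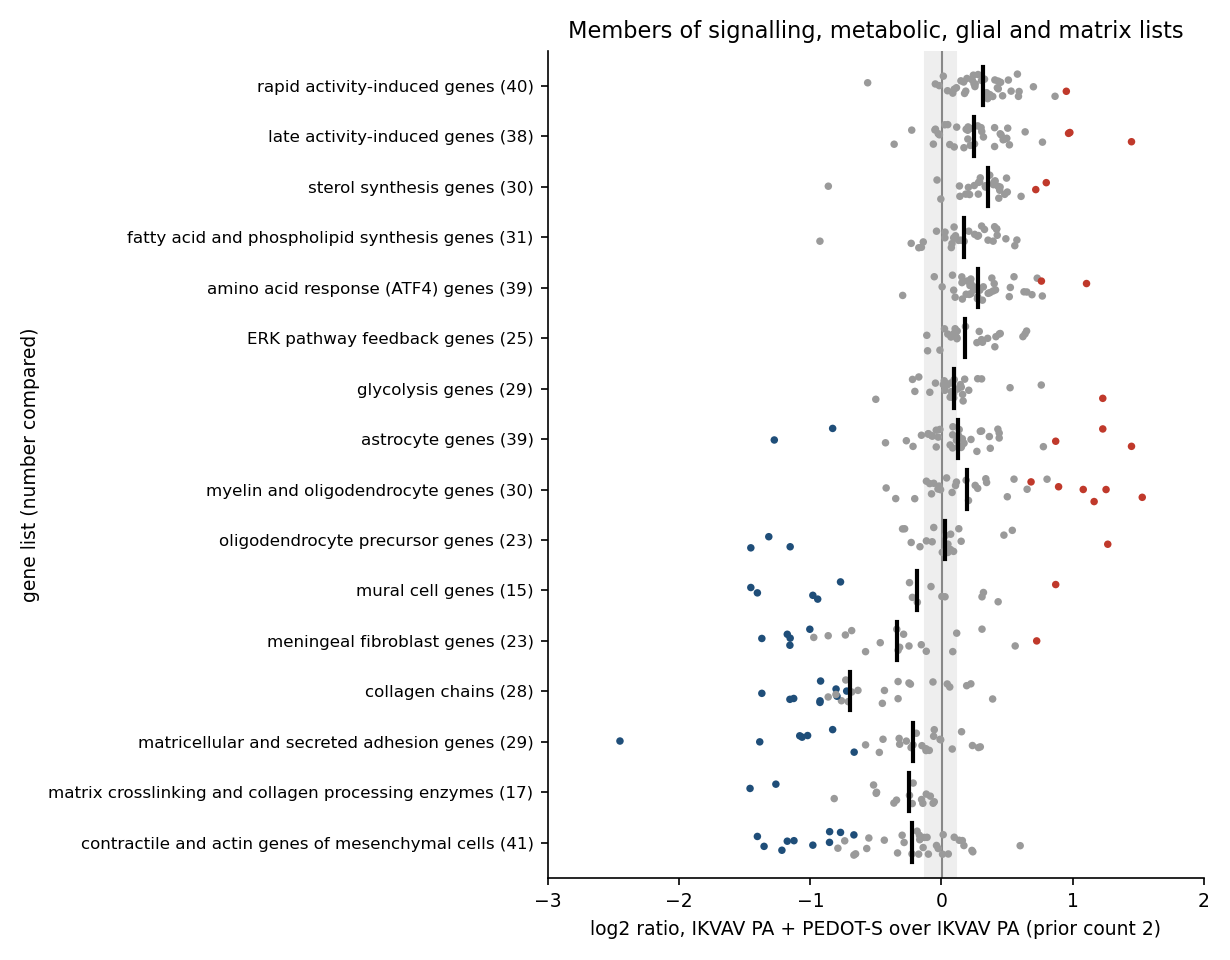
Each row is a gene list with the number of its genes compared, each point a gene at its log2 ratio with a prior count of 2 added (red risen, blue fallen, grey within the bound), and each black bar the list's median. The grey band holds the middle of all genes, from a log2 ratio of -0.124 to 0.111, and the bars of the activity, sterol and amino acid response lists lie to its right while that of the collagen chains, at -0.698, lies far to its left.

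Glial groups split by cell type and by gene. Mature oligodendrocytes wrap axons in myelin, and their precursors carry Pdgfra and Cspg4. Of 30 myelin and oligodendrocyte genes compared of 48 listed, 20 were above 0 with a median of 0.20, 6 rose and none fell. Of the 6 that rose, Myrf, Mal and Ermn reached 1 CPM among the scaffold libraries only with PEDOT-S, and Mbp, Mag and Mobp reached it in both. Myrf (ENSMUSG00000036098, GRCm38 chr19:10208272-10240748), the factor that switches on myelin genes, rose at 2.17, 0.738 and 0.993 CPM, a log2 ratio of 1.56 (1.18 to 1.94). Mbp, the myelin basic protein, rose at 53.2, 33.2 and 28.3 CPM, a log2 ratio of 0.68 (0.62 to 0.75). Mag, an adhesion protein of the inner myelin layer, rose at 4.097, 2.197 and 1.01 CPM, a log2 ratio of 0.90. The other 3 that rose, from 0.473 to 1.72 CPM in IKVAV PA, were Mal at 1.10, Ermn at 1.20 and Mobp at 1.26 on the log2 scale. Mog, on the outer myelin surface, was at 8.73, 11.7 and 9.42 CPM, a log2 ratio of -0.42 that stayed within the bound. Summed over the 6 oligodendrocyte markers the levels were 90.2, 61.6 and 48.6 CPM.

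Precursor genes did not move with them. Of 23 oligodendrocyte precursor genes compared 13 were above 0, the median was 0.030, 1 rose and 3 fell. Among the scaffold libraries the 1 that rose reached 1 CPM only with PEDOT-S, and 1 of the 3 that fell only in IKVAV PA. Cspg4, the NG2 proteoglycan, fell at 1.08, 3.01 and 6.93 CPM, a log2 ratio of -1.47 (-1.83 to -1.13), and Pdgfra, the receptor for platelet-derived growth factor, fell at 1.81, 4.06 and 10.7 CPM, a log2 ratio of -1.16. Both also mark mural or meningeal cells. The lineage factors Olig1 and Olig2 had log2 ratios of -0.06 and 0.006, at 6.75, 7.03 and 26.6 CPM for Olig1, so these markers did not separate the scaffold libraries although both were below the PDL level. Sox10, which precursors and oligodendrocytes share, had 0.49. Bcas1, a marker of newly formed oligodendrocytes, rose at 1.30 and Snx22, a sorting nexin, fell at -1.34, both uncertain because over 10% of their exonic bases are shared.

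Astrocyte genes likewise went both ways. Of 39 compared, 25 were above 0 with a median of 0.13, 3 rose and 2 fell. Among the scaffold libraries Gfap reached 1 CPM only with PEDOT-S and Cd44 only in IKVAV PA. Gfap could thus enter the count only as risen, and Cd44 only as fallen. Gfap, the intermediate filament of reactive astrocytes, rose on counts of 109 against 62, at 1.39, 0.497 and 0.402 CPM, a log2 ratio of 1.48 (1.02 to 1.96). Aldoc rose at 6.21, 2.64 and 9.59 CPM, a log2 ratio of 1.24 (1.03 to 1.44). For Aldoc the PDL library was highest, and for Gfap it was lowest. Cd44, a hyaluronan receptor, fell at 0.983, 2.41 and 7.47 CPM, a log2 ratio of -1.29, and Sparc, a matricellular protein, fell at 15.8, 28.2 and 80.5 CPM, a log2 ratio of -0.83. Slc1a2, the main glutamate carrier, was at 153, 161 and 169 CPM, a log2 ratio of -0.07, and Fabp7, which carries fatty acids in glia and their progenitors, was at 39.8, 29.5 and 112 CPM, one of 0.43. The 8 astrocyte markers, of which 6 were compared, summed to 200, 199 and 265 CPM, and Slc1a2 made up most of that. Radial glia and progenitor genes had 29 of 38 above 0 with a median of 0.090, and none rose or fell. All 13 Sox factor genes compared were above 0 with a median of 0.29, and none rose or fell. Among them Sox11, of immature neurons, was at 1165, 1005 and 847 CPM, a log2 ratio of 0.21, and the glial factor genes Sox2 and Sox9 had 0.23 and 0.37.

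Ttr, transthyretin, which the choroid plexus secretes, headed the whole ranking of protein-coding genes by the bound of its interval. It rose at 12.3, 3.93 and 8.5 CPM, a log2 ratio of 1.65 (1.49 to 1.81), or 3.14-fold. The other choroid plexus markers were below the expression filter in both scaffold libraries. Folr1 was at 0.472, 0.353 and 0.679 CPM, Kl at 0.191, 0.144 and 0.251, Clic6 at 0.485, 0.184 and 0.327, and Aqp1 at 0.153, 0.658 and 1.17. Of 8 choroid plexus genes compared of 30 listed 2 were above 0 and Ttr alone rose. Ependymal and cilia genes, from motile cilia, had 1 of 16 above 0 with a median of -0.32, and 2 fell. Cfap54, of the ciliary central apparatus, fell at 1.19, 3.06 and 3.09 CPM, a log2 ratio of -1.37, and the dynein heavy chain gene Dnah6 fell at -0.82. Foxj1, the master factor of motile cilia, was at 5.64, 6.33 and 8.07 CPM, a log2 ratio of -0.17.

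Summed markers of mural cells, which wrap vessels, and of meningeal fibroblasts were lower with PEDOT-S. Those of endothelium, which lines vessels, were too low for such a comparison. Summed over 4 mural cell markers the levels were 15.2, 35 and 92 CPM, and over 5 meningeal fibroblast markers 12.1, 25.3 and 58.2 CPM, so IKVAV PA + PEDOT-S was lowest and PDL highest for both. Acta2, described below, made up most of the mural sum in each library. The 4 endothelial markers summed to 1.4, 1.17 and 1.55 CPM, nearly all of it Pecam1 at 1.25, 1 and 1.41 CPM. Counts with PEDOT-S and in IKVAV PA were 6 and 4 for Cldn5, 2 and 2 for Cdh5, and 4 and 15 for Tek. Of 9 endothelial genes compared of 27 listed 6 were above 0 with a median of 0.080 and none rose or fell. Kcnj8, a defining pericyte gene, had no count in either scaffold library and 1 in the PDL library. Acta2 (ENSMUSG00000035783, GRCm38 chr19:34241090-34255590), smooth muscle actin, fell at 9.98, 26.4 and 78.7 CPM, a log2 ratio of -1.41 (-1.52 to -1.29), or 2.65-fold. Of 15 mural cell genes compared 6 were above 0, the median was -0.18, 5 fell and 1 rose. The 5 were Acta2, Cspg4, the myosin light chain kinase gene Mylk with -0.99, the pericyte G protein regulator Rgs5 with -0.95 and caldesmon, Cald1, with -0.77. The other 9 stayed within the bound. Pdgfrb, a defining mural receptor, was within the bound at 1.94, 2.302 and 5.61 CPM, a log2 ratio of -0.25. Of 23 meningeal fibroblast genes compared 5 were above 0, the median was -0.34, 5 fell and 1 rose. Of the 5 that fell 2 reached 1 CPM in IKVAV PA alone of the scaffold libraries. Lgals1, galectin-1, fell at 1.84, 4.18 and 12.6 CPM, a log2 ratio of -1.19, together with Col1a1, Pdgfra, Col6a2 and Fmod, whereas Cxcl12, a chemokine of meninges and vessels, rose at 14.5, 8.73 and 8.34 CPM, a log2 ratio of 0.73. Dcn, decorin, was at 2.32, 2.903 and 4.68 CPM and a log2 ratio of -0.32.

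Collagen chains were the list with the lowest median of those described, at -0.70 with 5 of 28 compared above 0 and 9 fallen, none risen. Of the 9 that fell 1 reached 1 CPM in the IKVAV PA library alone. Their summed level was 198, 286 and 434 CPM. Col1a1 (ENSMUSG00000001506, GRCm38 chr11:94936224-94953042), of fibrillar type I collagen, fell at 5.603, 14.5 and 35.02 CPM, a log2 ratio of -1.37 (-1.53 to -1.22). Col4a1, of the basement membrane, fell at 26.4, 46.2 and 72.7 CPM, a log2 ratio of -0.80 (-0.88 to -0.73), while its partner chain gene Col4a2 was at 42.7, 53.7 and 57.02 CPM and -0.33, within the bound. Col8a1, of short-chain type VIII collagen, fell at 2.41, 5.29 and 14.7 CPM, a log2 ratio of -1.13. For these 3 genes the PDL level was highest and that of IKVAV PA lay in between. Col11a2 did not share that order, at 9.92, 18.9 and 12.1 CPM and a log2 ratio of -0.93. Col5a1, Col5a2, Col6a2, Col11a1 and Col16a1 also fell, with log2 ratios of -0.93, -0.72, -1.19, -0.80 and -0.94. Col25a1, a transmembrane collagen of neurons, was at 0.04, and Col22a1 had the highest value, 0.40.

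Other matrix classes fell in fewer members. IKVAV comes from the laminin alpha1 chain, so basement membrane genes and laminin receptors were described on their own. Of 22 basement membrane genes compared 7 were above 0, the median was -0.12 and 3 fell, the heparan sulfate proteoglycan gene Hspg2 at 7.52, 15.2 and 31.1 CPM and a log2 ratio of -1.02 and Sparc among them. The laminin chain gene Lamb1 was at 41.8, 42.8 and 42.4 CPM, a log2 ratio of -0.03. Of 30 integrins and other laminin receptors compared 13 were above 0, the median was -0.018 and 3 fell, Itga4 at 0.715, 1.93 and 1.396 CPM and -1.44, the collagen receptor subunit Itga1 at 1.49, 2.98 and 3.96 CPM and -0.998, and Cd44. Among the scaffold libraries Itga4 and Cd44 reached 1 CPM in IKVAV PA alone, and so could enter only as low with PEDOT-S. The laminin receptor subunit Itga6 was at 18.1, 15.4 and 24.4 CPM, a log2 ratio of 0.24, and Rpsa, a ribosomal protein that also binds laminin, was at 484, 435 and 436 CPM, one of 0.15. Of 29 matricellular and secreted adhesion genes compared 5 were above 0, with a median of -0.22 and 7 fallen. Of the 7 that fell 2 reached 1 CPM in IKVAV PA alone of the scaffold libraries. Ecm1 fell at 1.46, 3.83 and 3.72 CPM, a log2 ratio of -1.40, and Thbs1, thrombospondin 1, fell at 36.9, 58.5 and 126 CPM, one of -0.67. Igfbp7, Ccn4 and Sparc fell too, with -1.07 and -1.04 for the first pair. Spp1, osteopontin, and Ccn2, the connective tissue growth factor, also fell, with log2 ratios of -2.56 and -1.09 that are uncertain since over 10% of their exonic bases are shared. Fn1, fibronectin, was at 73.9, 110.3 and 125 CPM, a log2 ratio of -0.58, and the neuronal glycoprotein gene Reln at -0.01.

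Enzymes that crosslink and cut the matrix added a few more. None of 17 crosslinking and collagen processing genes compared was above 0, with a median of -0.24, and the lysyl oxidase genes Loxl2, at 1.24, 3.44 and 6.601 CPM and a log2 ratio of -1.48, and Lox, at 1.16, 2.81 and 12.1 CPM and -1.28, fell. Of 42 matrix proteases and inhibitors compared 19 were above 0 with a median of -0.040, and 4 fell, among them the protease genes Adamts12 at 1.05, 3.13 and 6.07 CPM and -1.58 and Mmp2 at 0.702, 1.93 and 3.13 CPM and -1.46, and the inhibitor gene Timp4 at -1.01. Of the 4 that fell 2 reached 1 CPM in IKVAV PA alone of the scaffold libraries. Of 30 proteoglycan and hyaluronan genes compared 12 were above 0, the median was -0.11, 5 fell and 1 rose. Among the scaffold libraries 2 of the 5 that fell reached 1 CPM in IKVAV PA alone, and the 1 that rose only with PEDOT-S. Bgn, biglycan, fell at 2.39, 5.77 and 13.98 CPM, a log2 ratio of -1.27, with Cspg4, Cd44, Hspg2 and the collagen-binding Fmod at -1.02, and Layn, a hyaluronan receptor, rose at 1.404, 0.489 and 1.12 CPM, a log2 ratio of 1.52 (1.06 to 1.997).

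Contractile genes of mesenchymal cells were lower as well. Of 41 contractile and actin genes of mesenchymal cells compared 10 were above 0, the median was -0.23, 10 fell and none rose. Of the 10 that fell 1 reached 1 CPM in IKVAV PA alone of the scaffold libraries. Tagln2, transgelin 2, fell at 1.69, 3.697 and 10.6 CPM, a log2 ratio of -1.13. Cavin1, a coat protein of caveolae, fell at 3.23, 5.85 and 14.8 CPM, a log2 ratio of -0.86, and Ahnak, a giant scaffold protein, fell at 1.62, 4.17 and 9.86 CPM, one of -1.36 (-1.66 to -1.08). The same order of libraries held in these 3 as in Acta2. Cald1 fell at 17.8, 30.4 and 59.3 CPM, and the annexin gene Anxa1, the filamin gene Flna and the light chain gene Myl9 fell with log2 ratios of -1.25, -0.67 and -0.86. Vim, vimentin, which glia also express, was at 124, 113 and 198 CPM, a log2 ratio of 0.14, and Synpo2, of the Z-disc, was the highest at 0.60. Targets of YAP and TEAD, the factors that read cell tension, had 15 of 33 above 0 with a median of -0.037, and Ccn2 alone fell. How far the fall of matrix and contractile genes follows the mural and meningeal markers was not tested.

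Short stretches of these promoters are shown because a TEAD motif was counted among the contractile genes that fell. The letters GGAATG were searched on either strand of the 250 bases before each start, and a match at any start of a gene counted. They were present for 12.7% of the 9687 genes with a sequence and 18.6% of those that fell (19 of 102). YAP and TEAD targets held them for 46.2% (12 of 26) and contractile genes for 39.5% (15 of 38). The number of starts was not matched between these groups. Contractile genes with a match had a median of -0.738 and those without one -0.168, while YAP and TEAD targets had -0.134 and 0.024. The CArG box, which serum response factor binds, was present for 1.42% of all promoters and 7 of the 38 contractile genes (18.4%), with medians of -0.174 with and -0.225 without it. The AP-1 site TGANTCA was present for 4.9% of all promoters, 10.8% of those of genes that fell and 6 of the 38 contractile genes (15.8%), with medians of -0.719 with and -0.18 without it, so the split of the contractile list was about as large for this site as for GGAATG. The 8 contractile genes that fell and held GGAATG were Acta2, Ahnak, Anxa1, Cald1, Cavin1, Flna, Mylk and Tagln2. The whole stretch of 250 bases is given for Ahnak, at chr19:8989034-8989283 (+ strand), and 30 bases around the match nearest to the start for the others, from RefSeq on GRCm38.p6 with the match in capitals. They lie at chr19:34255502-34255531 (- strand) for Acta2, within the span GENCODE gives that gene, chr1:172500154-172500183 (+ strand) for Tagln2, chr11:100970836-100970865 (- strand) for Cavin1, chr16:34784780-34784809 (+ strand) for Mylk, chr19:20390890-20390919 (- strand) for Anxa1, chr6:34598339-34598368 (+ strand) for Cald1 and chrX:74246663-74246692 (- strand) for Flna.
Ahnak: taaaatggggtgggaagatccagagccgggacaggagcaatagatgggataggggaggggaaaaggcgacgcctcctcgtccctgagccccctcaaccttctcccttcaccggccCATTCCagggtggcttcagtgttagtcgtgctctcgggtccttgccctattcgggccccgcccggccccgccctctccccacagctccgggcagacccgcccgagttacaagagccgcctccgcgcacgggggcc
Acta2: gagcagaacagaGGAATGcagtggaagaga
Tagln2: taagcgctccagCATTCCacgcggcggcgc
Cavin1: aCATTCCtctgccccagtcccgctgccgca
Mylk: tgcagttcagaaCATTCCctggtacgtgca
Anxa1: actgcactgaacCATTCCtgtgaggaataa
Cald1: gagcatgcctagGGAATGacaggcatctgc
Flna: ggcgttgtggggCATTCCaacgggaggggc

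**Figure D3:**
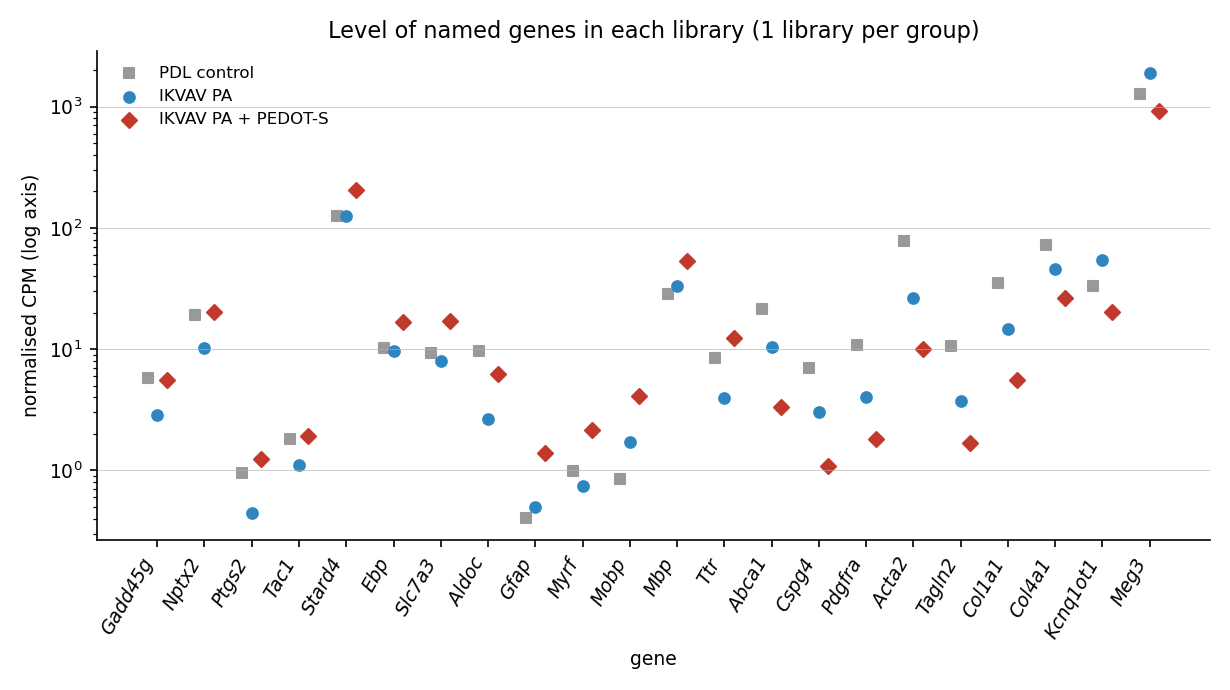
Normalised CPM (log axis) of 22 genes described in the text in the PDL control (grey squares), IKVAV PA (blue circles) and IKVAV PA + PEDOT-S (red diamonds) libraries, 1 library per group and so without error bars. Red lies above blue from Gadd45g to Ttr and below it from Abca1 to Meg3, and from Abca1 to Col4a1 the PDL level is the highest of the 3.

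Neuronal genes hardly differed between the scaffold libraries. Of 33 pan-neuronal genes, all compared, 15 were above 0 with a median of -0.010 and none rose or fell. Syn1, a synaptic vesicle protein, was at 434, 490.1 and 485 CPM, a log2 ratio of -0.18. Of 43 excitatory neuron and cortical layer genes compared 30 were above 0 with a median of 0.072, and Ccn2, also a marker of the deepest layer, was the only one beyond the bound. Tle4, a deep layer corepressor, was at 78.2, 53.4 and 55.02 CPM, a log2 ratio of 0.55, and Slc17a7, the vesicular glutamate carrier, at 65.2, 77.4 and 67.6 CPM, one of -0.25. Of 43 inhibitory interneuron genes compared 32 were above 0 with a median of 0.072 and none moved, with Gad1, the GABA-making enzyme, at 272, 291 and 342 CPM and -0.10. The 4 excitatory markers summed to 923, 929 and 846 CPM and the 4 inhibitory ones to 552, 564 and 634 CPM. Axon growth and immature neuron genes had 27 of 41 above 0 and a median of 0.029, with none risen or fallen.

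Synaptic and channel genes leaned slightly down. Of 63 presynaptic release genes compared 21 were above 0 with a median of -0.027, and of 53 postsynaptic genes 23 with a median of -0.055, and none in either list rose or fell. Camk2a, a kinase of synaptic plasticity, was at 133, 184 and 189 CPM, a log2 ratio of -0.46. The scaffold protein gene Shank1 was at 449.5, 591 and 510.1 CPM, a log2 ratio of -0.40, and Dlg4, encoding PSD-95, at 451, 469.6 and 499 CPM, one of -0.06. Homer1, a scaffold with an activity-induced short form, had a log2 ratio of 0.35. The voltage-gated sodium channel list, which also held Nalcn, Fgf11 to Fgf14, Ank2, Ank3 and Sptbn4, had 2 of 17 above 0, Fgf11 and Fgf13. Its median was -0.15, its summed level 3666, 4015 and 3876 CPM, and 1 gene fell. Scn2a, a neuronal channel, was at 249, 276 and 269 CPM, a log2 ratio of -0.15, and Sptbn4, the spectrin of the axon initial segment, at 119, 158 and 118 CPM, one of -0.41. Voltage-gated calcium channel genes had 7 of 36 above 0 with a median of -0.14 and none beyond the bound. Among them Cacna1e, the R-type channel, was at 173, 229.5 and 190.5 CPM, a log2 ratio of -0.41, and Cacna1d, an L-type channel, at -0.36. The calcium channel list also held the ryanodine receptor gene Ryr2, at -0.48. Protein-coding genes in the tenth with the longest exonic sequence had a median of -0.054, against 0.090 in the tenth with the shortest. With the trend on exonic length and transcript GC removed, the sodium channel median was -0.082. Potassium, HCN and chloride channel genes had 42 of 84 above 0 and a median of -0.002. For ionotropic glutamate receptor and auxiliary genes the figures were 18 of 36 and -0.001, with Nptx2 alone risen, and for GABA-A and glycine receptor genes 13 of 24 and 0.035. The chloride exporter Slc12a5, which makes GABA inhibitory in mature neurons, was at 127, 177 and 151 CPM, a log2 ratio of -0.48.

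Housekeeping families had small shifts, in some of them with nearly every member on the same side of 0. All 79 cytosolic ribosomal protein genes compared were above 0, from 0.005 to 0.406 with a median of 0.17, and none rose. Nuclear-encoded oxidative phosphorylation subunits had 74 of 80 above 0 with a median of 0.12, proteasome subunits 43 of 46 with 0.14, and mitochondrial ribosomal proteins 58 of 77 with 0.067, and none in these rose or fell. Aminoacyl-tRNA synthetases had 18 of 34 above 0 with a median of 0.029. Ribosomal protein genes are short, and with the trend on exonic length and transcript GC removed the ribosomal median was 0.110. The 7 mitochondrially encoded mRNAs compared of 13 listed were all below 0 with a median of -0.23 and none fell. Among the 7, mt-Nd5, of complex I, was at 1820, 2274 and 2430 CPM and mt-Co1, of complex IV, at 5155, 5885 and 6111 CPM. The other 6 listed did not reach 1 CPM in either scaffold library, and why was not tested. Histone cluster genes, of which 12 of 71 were compared, had 9 above 0 with a median of 0.28, and 3 rose. Hist1h2bc rose at 7.696, 3.35 and 5.11 CPM, a log2 ratio of 1.20, the linker histone gene Hist1h1c at 19.3, 9.92 and 11.1 CPM, one of 0.96, and Hist1h4h at 1.03, 0.361 and 0.855 CPM, one of 1.52. Of the 3 that rose Hist1h4h reached 1 CPM only with PEDOT-S. Most histone messages lack a poly(A) tail, and for all 3 libraries the labels name both polyA RNA as the molecule and a kit for total RNA.

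**Figure D4:**
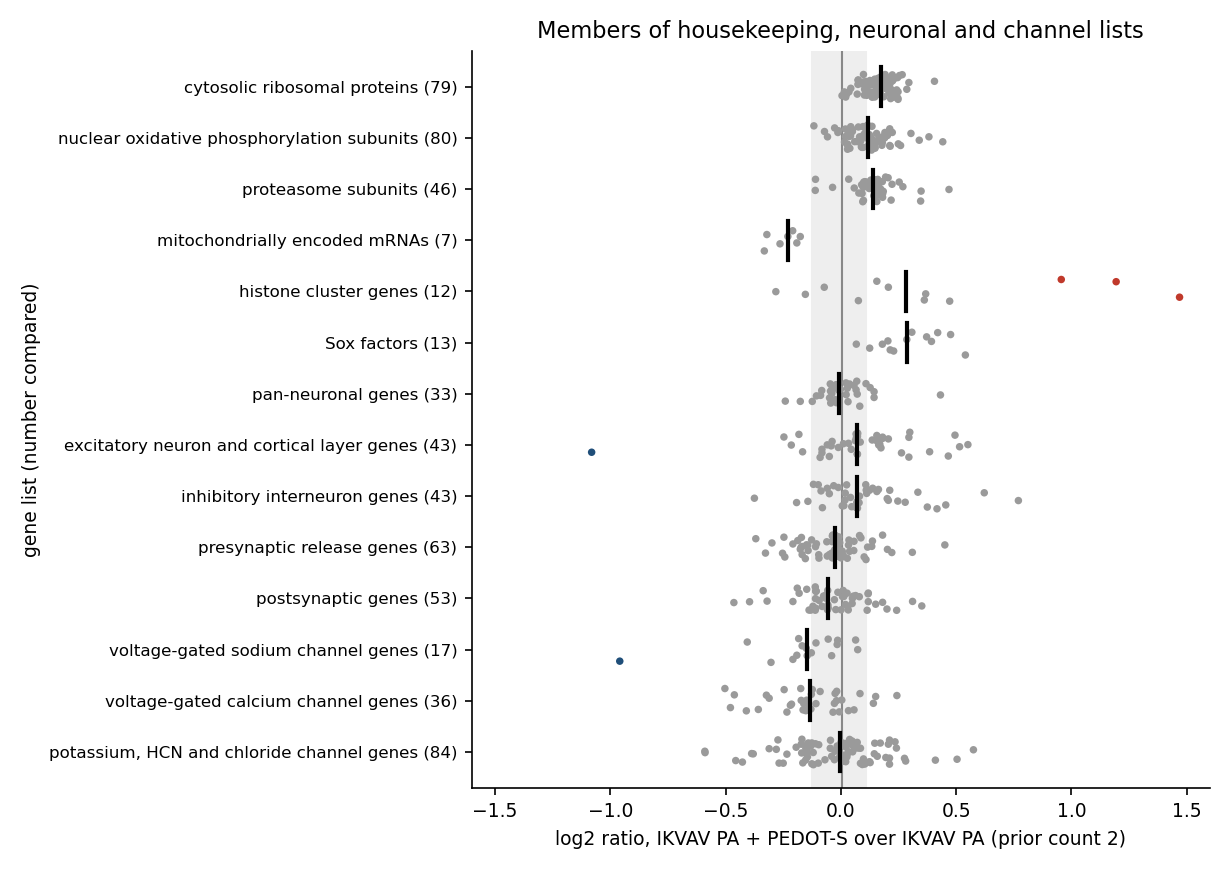
Housekeeping, neuronal and channel lists, with 1 point per gene (red risen, blue fallen, grey within the bound), its log2 ratio (prior count 2) on the horizontal axis, the number compared in brackets and the list median as a black bar over the grey band of all genes (-0.124 to 0.111). The cytosolic ribosomal protein genes form a tight cloud above 0 around 0.175, the 7 mitochondrially encoded mRNAs sit around -0.23, and the bars of the pan-neuronal and synaptic lists lie inside the band.

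Noncoding genes made up 9.84% of the genes compared, pseudogenes included, and 135 of the 271 genes that fell, so 10.1% of them fell against 1.11% of protein-coding genes. Of those 135, 77 reached 1 CPM in the IKVAV PA library alone, against 52 of the 136 protein-coding genes that fell. Level was not matched between these shares. In the tenth of protein-coding genes with the lowest mean level, 76 of 1229 fell and the median log2 ratio was -0.116. The best known of the noncoding genes stay in the nucleus. Of 29 nuclear long noncoding RNAs compared 11 were above 0 with a median of -0.17, 7 fell and none rose, and their summed level was 3458, 5044 and 4029 CPM. Here IKVAV PA was the high library. Kcnq1ot1 (ENSMUSG00000101609, GRCm38 chr7:143203458-143296549), the imprinted antisense RNA of the Kcnq1 locus, fell at 20.1, 54.6 and 33.4 CPM, a log2 ratio of -1.44 (-1.52 to -1.36). Meg3 (ENSMUSG00000021268, GRCm38 chr12:109541001-109571726), an imprinted RNA of the Dlk1 locus, fell at 919, 1897 and 1263 CPM, a log2 ratio of -1.05 (-1.06 to -1.03), and Malat1 (ENSMUSG00000092341, GRCm38 chr19:5795690-5802672), a nuclear speckle RNA, fell at 292, 544 and 382 CPM, a log2 ratio of -0.90 (-0.92 to -0.88). Rn7sk, the 7SK RNA that restrains transcription elongation, fell at 2.09, 4.21 and 2.08 CPM, a log2 ratio of -1.01. Snhg11, which the annotation lists as protein-coding, fell at 25.8, 54.3 and 42.4 CPM, a log2 ratio of -1.08, and Miat and Ftx fell with -0.75 and -0.80 but share over 10% of their exonic bases. Neat1, the paraspeckle RNA, went the other way with 0.32, within the bound, and the imprinted Peg13 had 0.09.

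The fall was spread unevenly over the annotated classes. Of 188 genes in the class TEC, provisional loci that the annotation keeps apart until tested, 60 fell and 25 were above 0, with a median of -0.53. Antisense genes had 23 of 189 fallen and a median of -0.23, lincRNA genes 29 of 284 and -0.16, and sense intronic genes 5 of 25 and -0.36. Processed transcripts had 6 of 155 fallen and processed pseudogenes 4 of 327 with medians of -0.12 and 0.055. None of 36 bidirectional promoter lncRNA genes and none of 34 transcribed processed pseudogenes fell. Many genes that fell reached 1 CPM in the IKVAV PA library alone, and so could enter only as low with PEDOT-S. They were 37 of the 60 TEC, 18 of the 23 antisense, 11 of the 29 lincRNA and 2 of the 5 sense intronic genes. The same held for 2 of the 6 processed transcripts and 3 of the 4 processed pseudogenes. Genes named as antisense or opposite strand, 33 of 291 compared, had 7 above 0 and 6 fallen, of which 5 reached 1 CPM in the IKVAV PA library alone. An example that fell is Grin1os at -1.63, on the other strand of the glutamate receptor gene Grin1, with which its exons overlap. Since the strand setting of the counting is not given in the sources used here, reads of opposite strand genes and of their partners cannot be told apart.

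Place within a protein-coding gene separated them further. Of 150 noncoding genes and pseudogenes that lie within an intron of a protein-coding gene on the same strand 47 fell and the median was -0.424, of 93 on the opposite strand 9 fell with a median of -0.079, and of 1090 elsewhere 79 fell with a median of -0.110. For 133 of the same-strand genes the host gene was compared too. Their median log2 ratio was -0.565 against 0.000 for the hosts, and 102 of the 133 lay below their host. The hosts of the 46 that fell had a median of -0.048 and ranged from -0.767 to 0.250, and 1 of these hosts fell. The 46, and the examples that follow, were picked by their own fall. That they lie below their hosts was largely given by that choice. The numbered model Gm44667, at 0.587, 2.46 and 1.52 CPM, fell by 2.07 on the log2 scale while its host Mef2a, an activity-regulated transcription factor, was at 144, 143 and 142 CPM, a log2 ratio of 0.006. Among the scaffold libraries Gm44667 reached 1 CPM in IKVAV PA alone. Gm44830 fell by 2.37 within Ube3a, the imprinted ubiquitin ligase gene, which was at 174, 174 and 181 CPM with over 10% of its exonic bases shared. Gm47246 fell by 2.41 within Naa35, a subunit of an acetyltransferase, which had 0.07 and also shares over 10%, and Gm37677 had -2.18 within Ppp1r12b, a myosin phosphatase subunit, which had -0.12.

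**Figure D5:**
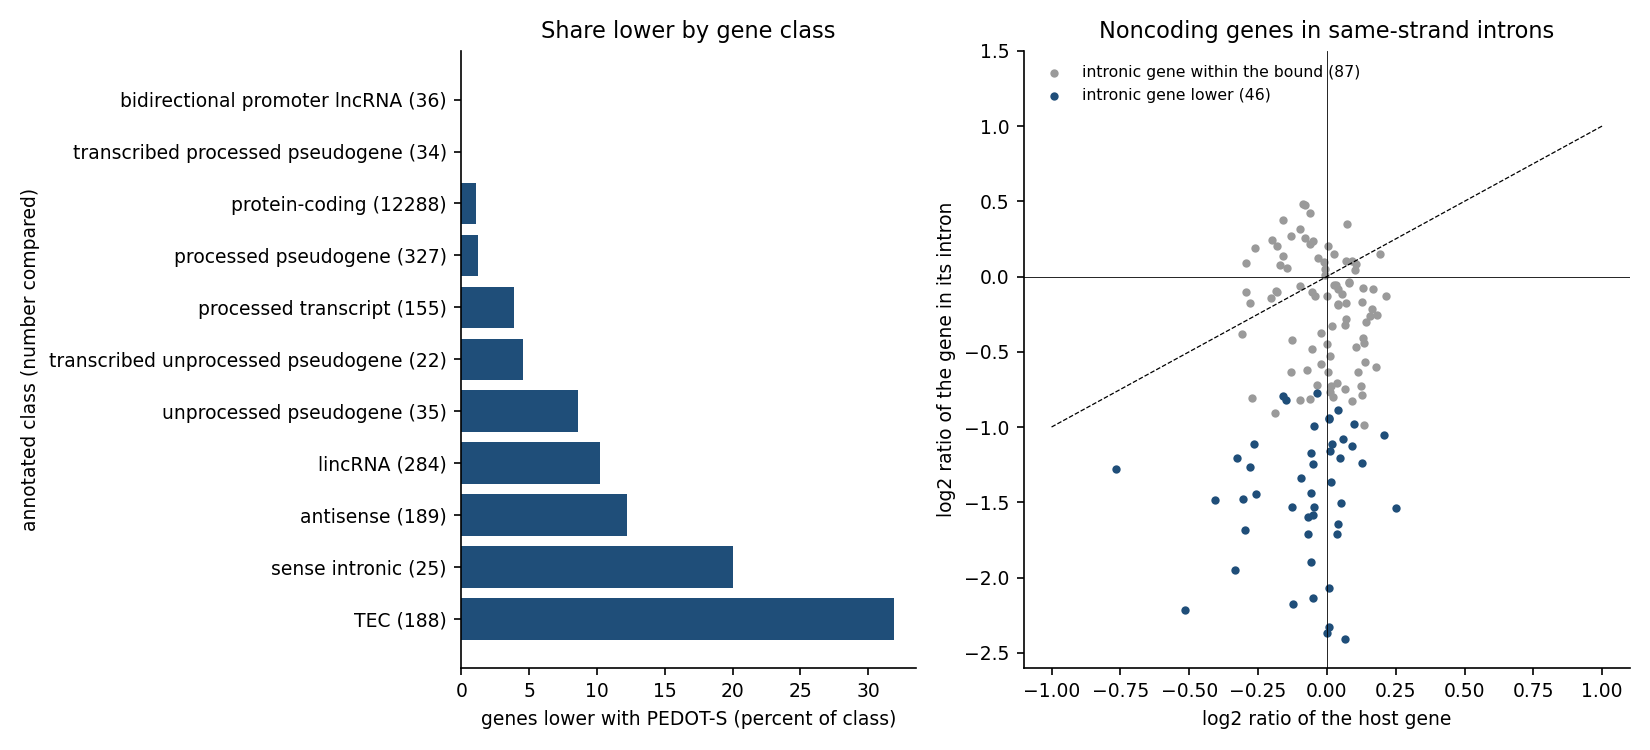
Left, the percent of each of the 11 annotated classes with most genes that fell, with the number compared in brackets, which runs from none of the bidirectional promoter lncRNA genes and transcribed processed pseudogenes, past 1.11% of protein-coding genes, to 60 of 188 TEC genes. Right, the log2 ratio of 133 noncoding genes in same-strand introns against that of their host gene, with the dashed line at equal ratios, where the 46 that fell (blue) lie well below hosts clustered around 0. The blue genes were picked by their own fall, so their place below the hosts is largely given by that choice.

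Several of the protein-coding genes that differed most belong to no list above. Selenow (ENSMUSG00000041571, GRCm38 chr7:15917208-15922402), a small selenoprotein, rose at 377, 229 and 273 CPM, a log2 ratio of 0.72 (0.70 to 0.75). Gpx1, the glutathione peroxidase and also a selenoprotein, rose at 25.4, 14.8 and 20.2 CPM, a log2 ratio of 0.77. H2-K1, a class I histocompatibility heavy chain gene, rose at 12.9, 6.13 and 7.49 CPM, a log2 ratio of 1.08, and H2-D1 at 54.3, 33.5 and 36.2 CPM, one of 0.70. These 4 were all highest in the IKVAV PA + PEDOT-S library. Slc9a3r1, a PDZ scaffold protein of the cell cortex, rose at 4.65, 2.302 and 7.53 CPM, a log2 ratio of 1.01, and Kif18a, a mitotic kinesin, at 7.62, 4.12 and 8.19 CPM, one of 0.89, both with PDL as the highest library. Hoxb13, Glb1l2, Atg9b and Ankrd33b rose with log2 ratios of 1.31, 1.23, 0.99 and 0.95 from levels of 0.441 to 1.44 CPM in IKVAV PA.

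Among those that fell most, levels were low. Crip3, a LIM domain protein, fell at 0.689, 2.39 and 1.66 CPM, a log2 ratio of -1.79 (-2.24 to -1.37). Lrrk1, a relative of the Parkinson kinase gene, fell at 0.574, 1.93 and 5.85 CPM, a log2 ratio of -1.75, and Gpnmb, a glycoprotein of pigment cells and macrophages, at 0.562, 1.74 and 2.31 CPM, one of -1.63. Tgfbr2, the type II receptor for TGF-beta, fell at 0.319, 1.04 and 2.301 CPM, a log2 ratio of -1.71. Among the scaffold libraries Crip3, Lrrk1, Gpnmb and Tgfbr2 reached 1 CPM in IKVAV PA alone. They could thus enter the count only as low with PEDOT-S. For Lrrk1, Gpnmb and Tgfbr2 the PDL level was highest, as for Col1a1. A further set was highest in IKVAV PA with PDL between the scaffold libraries. In it Rtbdn, a retbindin first described in retina, fell at 2.58, 7.29 and 4.14 CPM, a log2 ratio of -1.50 (-1.73 to -1.28). The chromatin reader gene L3mbtl1 fell at 4.33, 10.3 and 6.64 CPM, a log2 ratio of -1.25, and the imprinted retrotransposon-derived gene Rtl1, of the same locus as Meg3, at 1.8, 4.67 and 2.28 CPM, one of -1.38. Otof, a calcium sensor of inner ear synapses, fell at 2.29, 5.41 and 5.18 CPM, a log2 ratio of -1.24. Esyt3, Coro6, Aspdh, Sycp2 and Cfap46 fell with log2 ratios of -1.66, -1.65, -1.35, -1.55 and -1.29. So did Phyhd1 with -1.51, which is uncertain for its shared exons, and the numbered gene model Gm20219 with -1.82.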

How the data were processed

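The deposited files hold whole-number read counts per Ensembl gene, not normalised by the authors, 1 file for each of 3 libraries. Per the submitters' processing notes they used HTSeq 2.0.2, STAR 2.7.5, DESeq2 1.14.1 and cutadapt 4.2, and the mm10 build. The annotation release, strand setting and other settings are not given in the sources used. Per the labels' protocols the libraries came from a total RNA kit, whereas the molecule field reads polyA RNA.

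From the counts, TMM factors were computed with edgeR 4.0.16 under R 4.3.3 (0.991 for IKVAV PA + PEDOT-S, 1.002 for IKVAV PA, 1.007 for PDL), and CPM were scaled by them. GENCODE M21 (GRCm38) gave symbols, classes and coordinates for 54165 of 54232 identifiers, and the other 67 held at most 0.0126% of a library's counts. Genes reaching 1 CPM in either scaffold library were compared. The ratio's 95% interval is the exact (Clopper-Pearson) interval for the split of the 2 counts (scipy 1.17.1, Python 3.11.15), and a gene counted as risen or fallen where it lay wholly beyond 1.5-fold. List medians use log2 ratios with a prior count of 2 in each library. Genes with over 10% of exonic bases shared with another gene were marked uncertain. The calculation was tested on simulated data.

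Named are the 30 highest and 30 lowest protein-coding genes by the bound nearest to no difference, the 5 highest and 5 lowest of other classes, list members beyond the bound, up to 4 other members per list and defining markers. Some of them are not described, some genes named by the rule are not reported here, and host genes and further list members were named after their values were seen. The gene lists and the comparison were chosen with earlier results of these data known. Alternatives were DESeq2 1.42.0 size factors, other scalings, filters, bounds and prior counts, thinned libraries and means in place of medians. Chosen after seeing the data were the removal of a trend on exonic length and transcript GC, and leaving out noncoding genes within introns.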

Additional observations from a re-analysis of the deposited data

How the results depend on the processing

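With 1 library per group, no alternative measures the spread between cultures, which stays unknown. No paired analysis was possible because each group has 1 library, although all carry the same repeat number. The counts of 43 risen and 271 fallen genes stayed within 1.5 times under DESeq2 size factors, TMM from the scaffold libraries alone, total counts, thinning to the smallest total and leaving out genes with shared exons. A filter of 1 count gave 229 and 1123, a filter of 5 CPM 21 and 81, a 2-fold bound 7 and 73, and the ratio without its interval 140 and 585. Protein-coding genes alone gave 39 and 136, and leaving out noncoding genes within introns 43 and 215. Of 132 named genes that rose or fell, 1 lost its call under DESeq2 size factors, 1 under TMM from the scaffold libraries, 2 under total counts and 12 after thinning. Among list medians, the contractile list moved from -0.225 to -0.364 with the filter of 1 count and -0.378 as a mean, and sterol synthesis from 0.352 to 0.397 without genes of shared exons and 0.313 as a mean. As means the amino acid response was 0.336 and the nuclear noncoding RNAs -0.287. After removal of the trend on length and GC, the sodium channel median was -0.082 and the cytosolic ribosomal protein median 0.110. The complement and MHC median reversed from 0.133 to -0.002 with the filter of 1 count and -0.039 without genes of shared exons, and the choroid plexus list reversed from -0.135 to 0.111 as a mean. The cause of these changes was not tested, beyond the fewer or more genes that a filter leaves.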

Other observations

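Signalling and immune lists that belong to no comparison above were near the median of all genes, with single members beyond the bound. Of 10 interferon-induced genes compared of 40 listed, 7 were above 0 with a median of 0.086, and the 2 that rose were H2-K1 and H2-D1. Of 19 NF-kB and inflammatory genes compared 7 were above 0 with a median of -0.050, Ptgs2 and Cxcl12 rose and 2 fell, among them Vcam1. TGF-beta and BMP pathway genes had 26 of 45 above 0 and a median of 0.038, and 3 fell, among them Tgfbr2 and the latent TGF-beta binding protein gene Ltbp2. Of the 3 that fell 2 reached 1 CPM in IKVAV PA alone of the scaffold libraries. Neurotrophin and growth factor genes had 22 of 41 above 0 with a median of 0.055, and Igfbp7 fell. WNT pathway genes (24 of 38 above 0, median 0.044), Notch pathway genes (12 of 26, median -0.026) and circadian clock genes (14 of 22, median 0.042) held no gene beyond the bound. Cell cycle genes had 27 of 59 above 0 with a median of -0.016. Cdkn1c, an imprinted inhibitor of cell division, rose and Ccnd1, cyclin D1, fell, both uncertain for shared exonic bases.

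Large families of neuronal wiring and trafficking mostly lay near the median of all genes. Clustered protocadherins, which give neurons a surface identity, had 32 of 53 above 0 with a median of 0.022. Semaphorins, plexins and neuropilins had 14 of 28 and -0.007, ephrins and Eph receptors 12 of 19 and 0.051, Rab GTPases 29 of 47 and 0.030, and none in these families rose or fell. Of 195 solute carriers compared 96 were above 0, Slc7a3 and Slc9a3r1 rose and Slc16a4 fell, where Slc9a3r1 shares the family's prefix and is a regulator, not a carrier. Zfp zinc finger genes leaned slightly down, with 130 of 342 above 0 and a median of -0.046. Zfp433 alone fell, and among the scaffold libraries it reached 1 CPM in IKVAV PA alone. Kinesins leaned slightly down as well, with 12 of 34 above 0 and a median of -0.098, and Kif18a rose.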
